A study of Mus musculus with 12 samples.

Results

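The genes described here are 36 interferon-stimulated effector genes outside the large IFIT, OAS and guanylate-binding families. They were taken by symbol from the gene table, in which each of the 36 symbols matched a single Ensembl gene ID among 40481 genes. RNA was sequenced from cultured mouse hematopoietic stem cells (HSCs) in 12 libraries, 3 in each of 4 groups. The groups were wild type (WT) cells and cells with an inducible ETV6-RUNX1 fusion gene (iE/R in the labels), each from fetal liver at E14.5 (day of embryonic life) and from bone marrow of mice 8 weeks old. All 4 groups, WT included, were cultured for 3 days under HSC expansion conditions with 1 µg/mL doxycycline, the agent that switches the inducible gene on. ETV6-RUNX1 joins the genes of 2 transcription factors and is found in childhood B-cell leukemia. The promoter behind the inducible gene, the sorting gate, the strain and sex of the mice and how many mice went into a library are not given in the sources used here, so p-values measure the spread between these libraries, which may be technical in part. The question put to the genes was which of them rose equally in both sources and which rose only in fetal liver.

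Interferons are secreted proteins that bind receptors on the cell surface and, through JAK kinases, activate a transcription complex that contains STAT2 and IRF9. That complex binds the interferon-stimulated response element (ISRE) in the promoters of target genes. The effectors made from these genes act at each step of a viral life cycle: entry (IFITM proteins), nucleotide supply and RNA synthesis (viperin, CMPK2), assembly and release (tetherin), and modification of host and viral proteins by the ubiquitin-like protein ISG15. In HSCs many of these genes are known to be active at a low level without infection.

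Levels are in CPM as deposited, that is, reads scaled to the total of the library. Libraries held 32.3 to 64.5 M reads, so that 3 reads, the floor used here, equalled 0.0465 to 0.0928 CPM. Floors cover counting error only. No library stood at or under the floor for any of the 36 genes, and all 36 passed the filter for testing (at least 1 CPM in at least 3 libraries). A log2 fold change below is a difference of log2(CPM + 1), which understates the change of genes near 1 CPM. A gene was called at an adjusted p under 0.05 from limma (Benjamini-Hochberg over 14271 genes, all 12 libraries in the fit, two-sided), and every adjusted p below is of this kind unless a different tool is named. A number with ± SE is a log2 fold change, or a difference of them, with its standard error. Of the HSC markers (Kit, Procr, Mecom, Hlf, Slamf1, Fgd5, Hoxa9, Meis1, Cd34), all 9 were present, with a summed level of 1002 to 1304 CPM in WT and 2119.9 to 2608 in ETV6-RUNX1 fetal liver, and of 1194 to 2014 and 1716 to 2237 in bone marrow. Markers that define other blood cells were also read in these cultures, and their levels are given further down.

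In fetal liver 33 of the 36 genes rose with ETV6-RUNX1 and 2 fell, Ifitm1 and Ifitm2. Over all genes tested, 43.1% had a call, 24.8% upward and 18.3% downward. In bone marrow 29 of the 36 rose, where 19.4% of all genes had a call and 14.4% an upward one, and none was called lower (4.93% of all genes). The median log2 fold change of the 36 genes was 3.19 in fetal liver and 1.18 in bone marrow, beside 0.08 and 0.13 over all genes. A rise of at least 16-fold on this scale was called for 12 genes in fetal liver (0.673% of all genes) and for none in bone marrow (0.028%). The 3 ETV6-RUNX1 libraries lay wholly above the 3 WT libraries for 33 genes in fetal liver (32.3% of all genes) and for 29 in bone marrow (23.6%), the smallest exact permutation p that 3 against 3 libraries allow being 0.1.

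**Figure D1:**
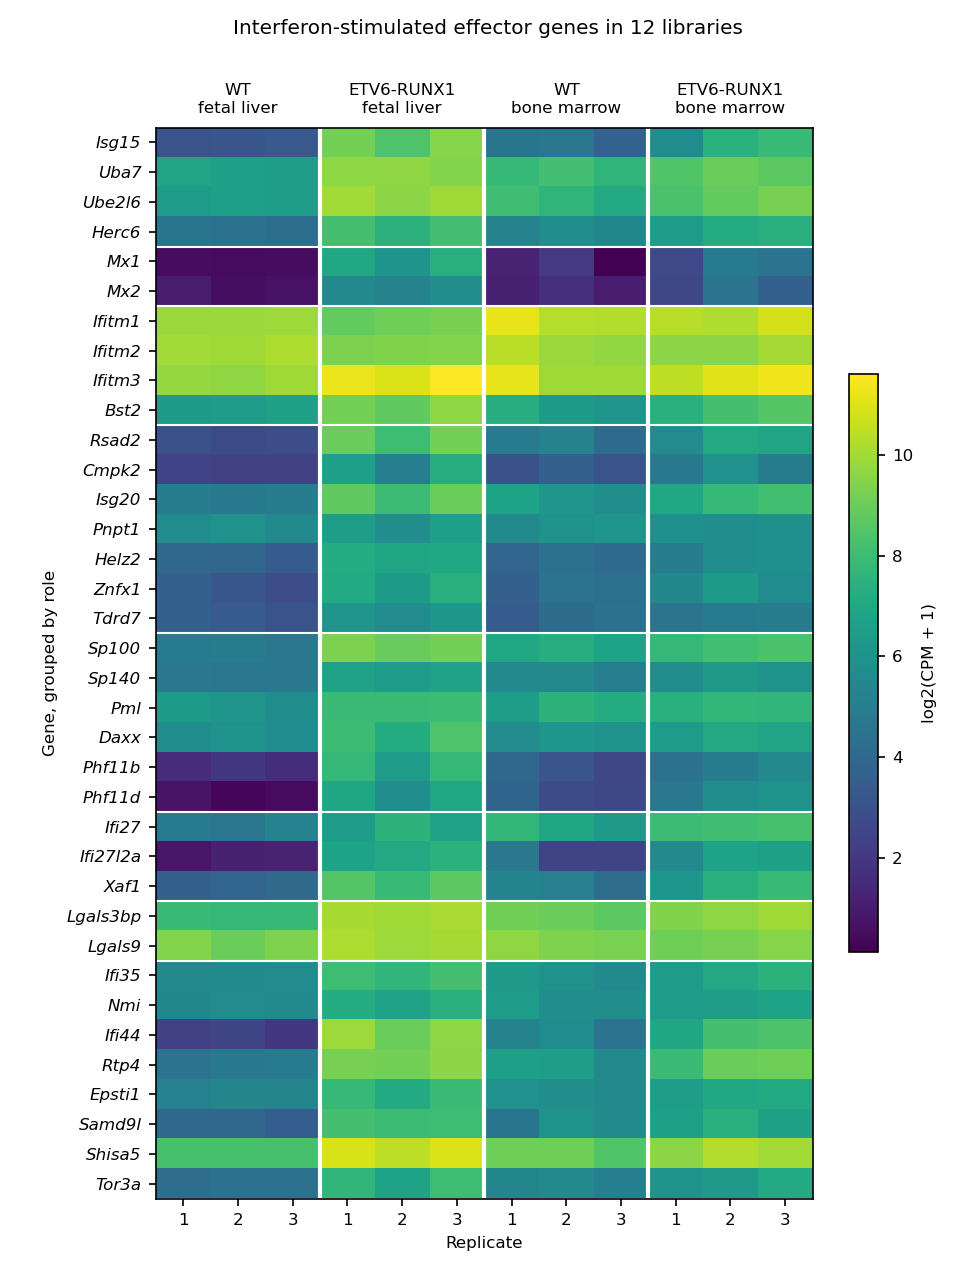
Heat map of the level of each of the 36 genes, log2(CPM + 1), with a row per gene, grouped by role, and a column per library, grouped by source and genotype. The 3 ETV6-RUNX1 fetal liver columns are brighter than the WT fetal liver columns in 33 rows, Ifitm1 and Ifitm2 are darker there, and the WT bone marrow columns lie above the WT fetal liver columns in most rows.

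The difference between the effects in the sources was then tested for each gene. It was called for 29 of the 36 genes, each with the larger effect in fetal liver (5.56% of all genes, with 9.19% called in either direction), and none had a called larger effect in bone marrow (3.62% of all genes). The 36 genes were then grouped by their calls. For 26 genes the rise was called in both sources and was larger in fetal liver, a pattern held by 2.01% of all genes. Lgals9, Pml and Nmi were called in fetal liver, not in bone marrow, and with a called difference (3.36% of all genes). Bst2, Cmpk2 and Ifi27 were called in both sources without a called difference (6.8%). Ifitm3 was called in fetal liver only, without a called difference (12.6%). Ifitm1, Ifitm2 and Pnpt1 had no called rise in either source (69.6%). None of the 36 was called higher in bone marrow alone (5.58% of all genes) or in both sources with a larger effect in bone marrow (0.028%). With every gene that had a read kept in both the fit and the adjustment, 16 differences were called in place of 29. The share of all genes called in that setting is not given here, so the drop is not read as particular to the 36 genes.

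No gene could be said to rise equally. A miss of the threshold does not show equality, so the 95% confidence interval of the difference was read against 2-fold in either direction. Of the 33 genes that rose in fetal liver, 0 had an interval that lay within 2-fold. For 21 of the 29 called genes the interval lay wholly above 2-fold. Neither count was taken over all genes, so how common such intervals are is not shown here. In the 3 genes called in both sources without a called difference the intervals ran on the log2 scale from 0.31 to 2.18 for Bst2, from 0.63 to 3.24 for Cmpk2 and from -0.02 to 1.84 for Ifi27. Their rises may therefore differ by more than 2-fold between the sources.

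**Figure D2:**
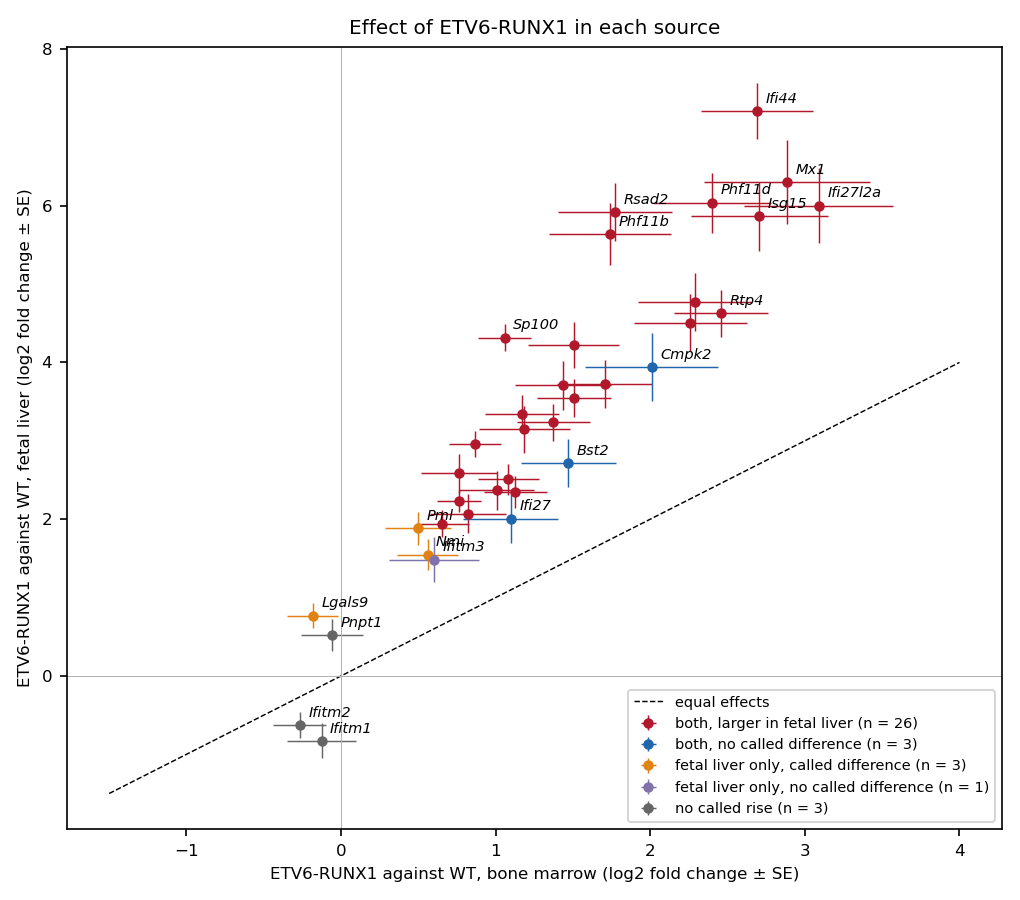
Log2 fold change of each gene in bone marrow (x axis) and fetal liver (y axis), with standard errors, coloured by the calls. Of the 36 points, 34 lie above the dashed line of equal effects, and Ifitm1 and Ifitm2 lie below it.

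**Figure D3:**
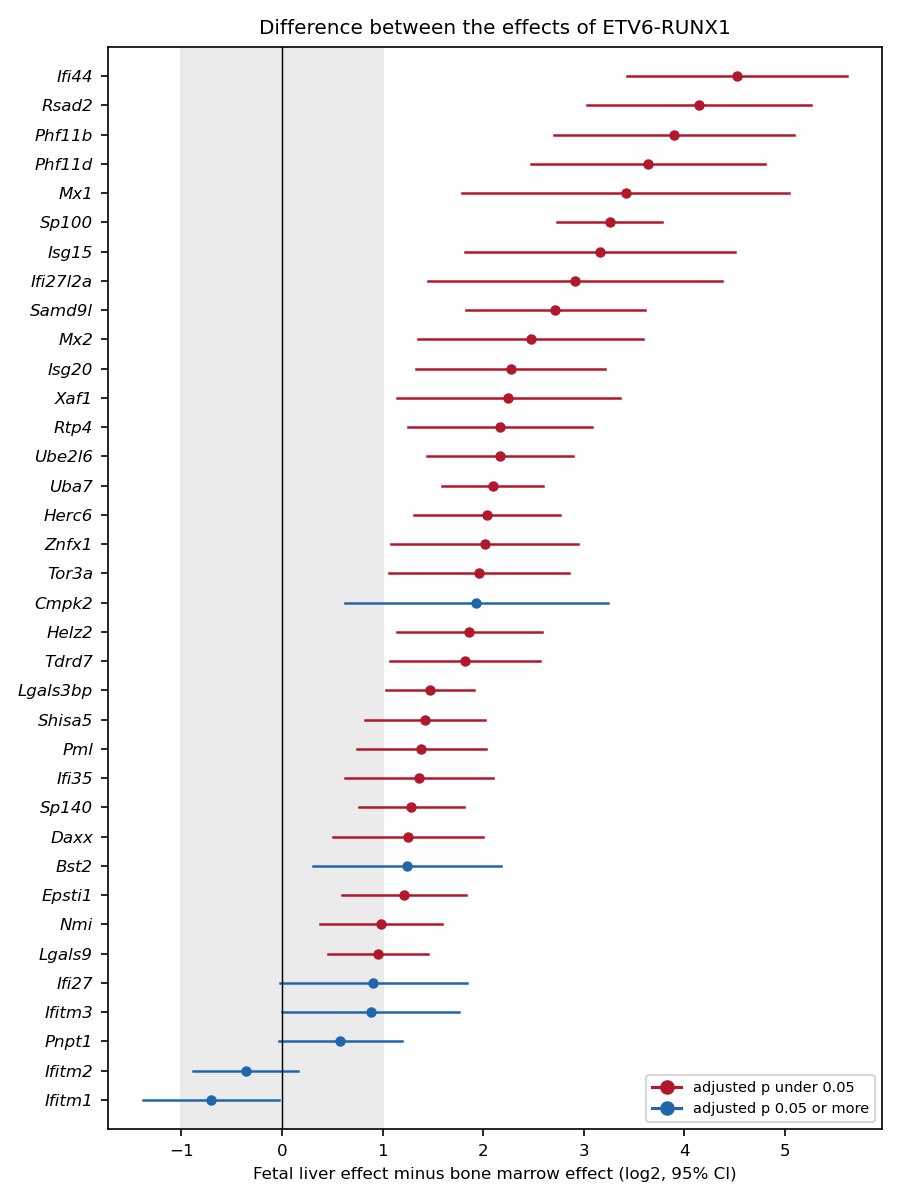
Fetal liver effect minus bone marrow effect for each gene (log2) with its 95% confidence interval, red where called, and with the band within 2-fold shaded. The 29 called genes lie to the right of 0, and of the 36 intervals that of Ifitm2 alone stays within the shaded band.

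The promoters of the genes were read for the ISRE. RefSeq windows on GRCm38.p6, from 250 bases before to 50 bases after a transcription start, were found for 30 of the 36 symbols (not for Rtp4, Mx1, Mx2, Ifi27, Ifi27l2a and Tor3a). The core searched was GAAA, 2 bases of any kind and GAAA, on either strand, overlapping matches included. It was present in 9 of the 30 (30%), beside 3.99% of the 27025 genes with a window. The gamma-activated site TTCNNNGAA, the motif of interferon gamma signalling, was present in 5 of the 30 (16.7%), beside 9.55% of all genes. A match is a run of letters, not a shown binding site, and genes without a match can hold an ISRE outside the window or in a looser form. The sequences below show the spread of forms among genes that behaved differently: Isg15 and Rsad2 rose in both sources and more in fetal liver, Bst2 rose in both, Lgals9 rose in fetal liver, and Ifitm2 fell there. They run 5′ to 3′ in the direction of the gene, end at the base before the start (for Lgals9 and Ifitm2, 30 bases before it), and have each core match in capitals.

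Isg15 (chr4:156200819-156200968, minus strand): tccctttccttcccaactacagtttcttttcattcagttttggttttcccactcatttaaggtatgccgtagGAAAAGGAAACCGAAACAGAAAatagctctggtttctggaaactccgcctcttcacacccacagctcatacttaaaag

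Rsad2 (chr12:26456453-26456602, minus strand): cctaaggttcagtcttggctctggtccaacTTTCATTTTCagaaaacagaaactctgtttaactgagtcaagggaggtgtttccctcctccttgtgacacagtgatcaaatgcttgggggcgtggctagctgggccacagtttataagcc

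Bst2 (chr8:71537473-71537622, minus strand): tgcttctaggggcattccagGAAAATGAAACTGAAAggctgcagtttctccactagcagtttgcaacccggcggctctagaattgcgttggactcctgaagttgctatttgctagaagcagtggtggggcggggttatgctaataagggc

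Lgals9 (chr11:78984954-78985074, minus strand): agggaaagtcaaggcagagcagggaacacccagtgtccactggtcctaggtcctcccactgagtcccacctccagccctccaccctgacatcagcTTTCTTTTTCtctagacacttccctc

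Ifitm2 (chr7:140955991-140956111, minus strand): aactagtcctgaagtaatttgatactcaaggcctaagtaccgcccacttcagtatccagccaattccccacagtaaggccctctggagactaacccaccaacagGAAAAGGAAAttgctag

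Isg15 holds 3 overlapping cores in a single run and Bst2 holds 2, whereas Rsad2, Lgals9 and Ifitm2 show 1 core each in the stretch printed. In Ifitm3 both matches, GAAAAGGAAA and GAAACCGAAA, lie in the 50 bases after the start. The Ifitm2 match has the same letters, GAAAAGGAAA, as the first of these, although Ifitm2 fell in fetal liver and Ifitm3 rose. The other genes with a core were Tdrd7, Phf11b and Shisa5.

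The ISG15 conjugation system rose as a whole. Isg15 encodes a ubiquitin-like protein, Uba7 the enzyme that activates it, Ube2l6 the enzyme that carries it and Herc6 the ligase that attaches it to targets in the mouse. All 4 genes were called higher in both sources with a called larger effect in fetal liver. Isg15 (chromosome 4, 156199424 to 156200818) stood at 7.48, 8.08 and 9.01 CPM in the WT fetal liver libraries (replicates 1 to 3) and at 597, 344 and 739 in the ETV6-RUNX1 ones. In bone marrow it stood at 23.03, 23.8 and 12.2 in WT and at 51.1, 173 and 239.7 in ETV6-RUNX1. The fetal liver groups were far apart, and in bone marrow replicate 1 of the ETV6-RUNX1 libraries was low, though still above all WT libraries. For fetal liver the log2 fold change of Isg15 was 5.86 ± 0.44 SE (adjusted p 1.79e-07). For bone marrow it was 2.71 ± 0.44 SE (adjusted p 0.00135), and the difference was 3.16 ± 0.63 SE (adjusted p 0.00651).

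Uba7 differed most clearly between the sources within this system. Its level was 113, 96.3 and 90.1 CPM in WT and 811, 827 and 707 in ETV6-RUNX1 fetal liver, and 225, 292 and 198 against 361, 524 and 418 in bone marrow. The bone marrow rise was small (0.87 ± 0.17 SE, adjusted p 0.0035) beside that in fetal liver (2.96 ± 0.17 SE, adjusted p 1.35e-08), and the difference was 2.09 ± 0.24 SE (adjusted p 0.000104). Ube2l6 rose by 3.34 in fetal liver and 1.17 in bone marrow (log2), and Herc6 by 3.54 and 1.504. The carrier, the activator and the ligase thus rose less than ISG15 itself in both sources, by estimates that were not tested against each other. Exons of Uba7 and Herc6 overlap the gene models Gm20661 and Gm45193 on the same strand, so part of their reads may be assigned elsewhere.

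Mx1 and Mx2 encode dynamin-like GTPases that trap viral nucleoproteins. Mx1 was almost silent in WT fetal liver, at 0.432, 0.368 and 0.419 CPM, and stood at 127, 65.7 and 158 with ETV6-RUNX1. In bone marrow the WT libraries gave 1.33, 3.17 and 0.0996 and the ETV6-RUNX1 libraries 5.30, 29.1 and 21.8 CPM. Mx1 rose by 6.30 ± 0.54 SE (adjusted p 6.35e-07) with fetal liver as the source. The bone marrow rise was 2.89 ± 0.54 SE (adjusted p 0.00283), and the difference was 3.42 ± 0.76 SE (adjusted p 0.0129). With a pseudocount of 0.1 the call of that difference was lost (3.81, adjusted p 0.0543). Mx2, which the GENCODE annotation lists as a polymorphic pseudogene, went from 1.04, 0.468 and 0.605 to 44.8, 36.99 and 54.5 CPM in fetal liver and from 1.30, 2.16 and 1.02 to 4.94, 21.9 and 11.7 in bone marrow. It rose by 4.77 and 2.29, with a difference of 2.47 ± 0.52 SE (adjusted p 0.00965). For neither gene did the WT groups differ by a call between the sources.

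The membrane restriction factors broke the pattern. IFITM proteins sit in cell and endosome membranes and hinder virus entry, and Bst2 encodes tetherin, which holds budding virus at the cell surface. The 3 Ifitm genes lie within 55.9 kb on chromosome 7 (140954837 to 141010770), in the order Ifitm2, Ifitm1, Ifitm3. Ifitm3 rose in fetal liver, from 883, 817 and 989 to 2461, 2055 and 3100.0 CPM (1.48 ± 0.29 SE, adjusted p 0.000979), with no overlap of the groups. Ifitm1 fell there, from 937, 933 and 963 to 461, 541 and 601 CPM (-0.83 ± 0.22 SE, adjusted p 0.00853). Ifitm2 also fell, from 1027, 992 and 1155 to 653, 694 and 706 CPM (-0.63 ± 0.17 SE, adjusted p 0.0093). Every ETV6-RUNX1 library lay below every WT library for both falling genes, a pattern seen in 23.3% of all genes. The falls of Ifitm1 and Ifitm2 and the rise of Ifitm3 in fetal liver kept their calls under all 22 alternatives, the scaling alternatives included. Of the 100-base words of the Ifitm2 transcripts, 30.4% also occur in the overlapping gene model Gm45717, so its level is uncertain, while no such word of Ifitm1 or Ifitm3 occurs in a transcript of another gene.

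In bone marrow no Ifitm gene was called, and a single WT library weighed on all 3. WT replicate 1 gave 2379 CPM of Ifitm1 beside 1262 and 1251 in replicates 2 and 3. It gave 2313 CPM of Ifitm3 beside 999.6 and 986, and 1362 CPM of Ifitm2 beside 934 and 854. The ETV6-RUNX1 libraries stood at 1467, 2073 and 2619.8 CPM for Ifitm3 and at 1326, 1186 and 1841 for Ifitm1. The bone marrow value of Ifitm3 was 0.60 ± 0.29 SE (adjusted p 0.158) with all libraries, and without WT replicate 1 it was called (1.01, adjusted p 0.00865). That of Ifitm1 was -0.13 ± 0.22 SE (adjusted p 0.728) and changed sign without the same library (0.18, adjusted p 0.496). Without it the difference between the sources was called for Ifitm1 (-1.01, adjusted p 0.0106, against -0.70, adjusted p 0.174, with all libraries). Ifitm2 stood at -0.27 (adjusted p 0.292) in bone marrow.

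Bst2 rose in both sources. It went from 82.4, 86.4 and 104 to 597, 447 and 804 CPM in fetal liver (2.72 ± 0.31 SE, adjusted p 1.15e-05) and from 153, 82.6 and 69.1 to 168, 297 and 379 in bone marrow (1.47 ± 0.31 SE, adjusted p 0.00577). The WT levels of the sources overlapped, and the difference between the effects, 1.24 ± 0.44 SE (adjusted p 0.0883), missed the threshold. It was called with limma array weights (1.18, adjusted p 0.019) and with DESeq2 (1.36, adjusted p 0.0325).

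**Figure D4:**
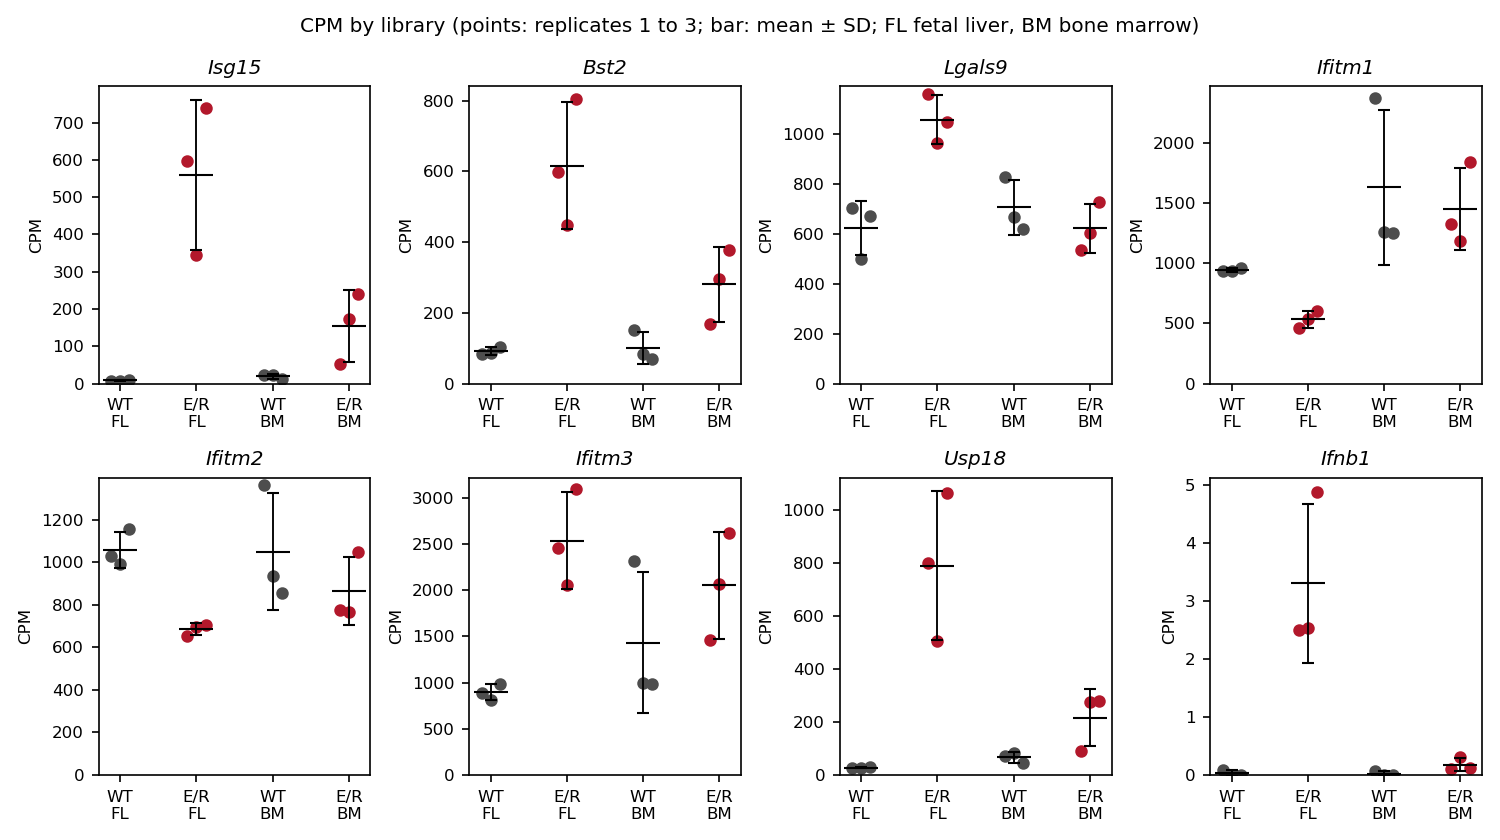
CPM in each library of 8 genes, with points for replicates 1 to 3 and bars for the mean ± SD, in WT (grey) and ETV6-RUNX1 (red, E/R) cells from fetal liver (FL) and bone marrow (BM). Isg15, Bst2, Ifitm3 and Usp18 are higher in the ETV6-RUNX1 fetal liver libraries than in all WT fetal liver libraries, Ifitm1 and Ifitm2 are lower, Lgals9 is higher in fetal liver and overlaps in bone marrow, and Ifnb1 is above 1 CPM in the ETV6-RUNX1 fetal liver libraries alone.

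Genes for nucleotide and RNA enzymes and RNA-binding proteins rose in 6 of 7 cases in each source, the exception being Pnpt1 both times. Rsad2 encodes viperin, a radical SAM enzyme that makes a chain-terminating nucleotide, and Cmpk2, its neighbour at a distance of 12.8 kb on chromosome 12, encodes a mitochondrial nucleotide kinase. Rsad2 went from 6.85, 5.45 and 6.11 to 504, 263 and 596 CPM in fetal liver and from 27.5, 37.4 and 16.6 to 49.1, 134 and 113 in bone marrow. Its difference between the sources was 4.14 ± 0.52 SE (adjusted p 0.000274), from rises of 5.92 and 1.77. Cmpk2 went from 4.41, 4.03 and 4.25 to 95.3, 33.3 and 156 CPM in fetal liver, with replicate 2 low, and from 6.82, 11.6 and 7.40 to 26.05, 60.8 and 31.3 in bone marrow, with replicate 2 high. The ETV6-RUNX1 groups of the sources overlapped for Cmpk2, and its difference of 1.93 ± 0.61 SE (adjusted p 0.0613) was not called. It was called without ETV6-RUNX1 fetal liver replicate 2 (2.55, adjusted p 0.00408), without ETV6-RUNX1 bone marrow replicate 2 (2.29, adjusted p 0.0338) and without WT bone marrow replicate 1 (2.06, adjusted p 0.0429). With edgeR it was also called (2.33, adjusted p 0.0344).

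Pnpt1 encodes the mitochondrial polynucleotide phosphorylase and was the flattest of these genes. Its level was 51.3, 61.4 and 48.6 CPM in WT and 89.7, 53.4 and 96.03 in ETV6-RUNX1 fetal liver, so that ETV6-RUNX1 replicate 2 fell among the WT libraries. The fetal liver value of 0.52 ± 0.20 SE (adjusted p 0.0501) lay at the threshold, and it was called without that library (0.78, adjusted p 0.00314) and with DESeq2 (0.49, adjusted p 0.0408). In bone marrow the value was -0.06 ± 0.20 SE (adjusted p 0.861). The exonuclease gene Isg20 rose by 3.71 in fetal liver and 1.43 in bone marrow, and the helicase gene Helz2 by 3.23 and 1.37. Znfx1, which encodes an RNA helicase of the mitochondrial surface, rose by 3.72 and 1.70. Tdrd7, a Tudor-domain gene, rose by 2.58 and 0.77. The differences between the sources were called for these 4 genes. The bone marrow call of Tdrd7 was weak (adjusted p 0.0416) and was lost with edgeR (0.63, adjusted p 0.0817) and without any of 6 single libraries.

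All 6 genes for nuclear body and chromatin proteins rose in fetal liver, and 5 of them in bone marrow. PML forms nuclear bodies in which SP100 and DAXX sit, and SP140 and the PHF11 proteins carry domains that read chromatin. Sp100 (chromosome 1, 85649988 to 85709998) had the clearest difference of the 36 genes by its adjusted p. It stood at 28.1, 29.9 and 24.6 CPM in WT fetal liver and at 646, 484 and 580.4 with ETV6-RUNX1, and at 122, 154 and 109 and 215, 275 and 318 in bone marrow. The replicates were tight, the WT bone marrow libraries lay between the fetal liver groups, and the log2 fold changes were 4.32 ± 0.17 SE (adjusted p 9.41e-10) and 1.06 ± 0.17 SE (adjusted p 0.00127). The difference of the effects was 3.26 ± 0.24 SE (adjusted p 4.25e-06). Phf11b and Phf11d, adjacent genes on chromosome 14 that each share words with Phf11c, rose by 5.64 and 6.04 in fetal liver and by 1.74 and 2.40 in bone marrow. Phf11d was under 1 CPM in the WT fetal liver libraries, at 0.649, 0.268 and 0.388, and reached 119, 53.7 and 125 with ETV6-RUNX1.

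Pml rose in fetal liver and was not called in bone marrow. Its level was 81.2, 68.8 and 52.9 CPM in WT and 247, 247 and 252 in ETV6-RUNX1 fetal liver (1.88 ± 0.21 SE, adjusted p 9.99e-06). In bone marrow the WT libraries stood at 94.05, 186 and 149 and the ETV6-RUNX1 libraries at 170.5, 211 and 206 (0.50 ± 0.21 SE, adjusted p 0.112), with an overlap at WT replicate 2. Without that library the bone marrow rise was called (0.71, adjusted p 0.0363). The difference was 1.39 ± 0.30 SE (adjusted p 0.011). Daxx, a histone chaperone gene, rose by 2.07 in fetal liver and 0.82 in bone marrow, and its difference (1.25 ± 0.35 SE, adjusted p 0.0383) lost its call when any of 9 libraries was left out in turn. Sp140 rose by 1.94 and 0.65, with a bone marrow call (adjusted p 0.0181) that was lost with edgeR (0.51, adjusted p 0.071) and without WT replicate 3 or ETV6-RUNX1 replicate 2.

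Ifi27 and Ifi27l2a encode small hydrophobic proteins of the ISG12 family and are separated by 1.93 kb on chromosome 12, and Xaf1 encodes a pro-apoptotic partner of XIAP. The 3 genes rose in both sources. Ifi27l2a went from 0.8, 1.25 and 1.36 to 108, 131 and 175 CPM in fetal liver (6.002 ± 0.48 SE, adjusted p 3.38e-07). In bone marrow it went from 25.5, 4.58 and 4.66 to 45.7, 108 and 100.1 (3.09 ± 0.48 SE, adjusted p 0.000972), and WT replicate 1 was again the high library. Its neighbour Ifi27 rose far less in fetal liver, from 28.4, 23.5 and 35.9 to 87.2, 184 and 105 CPM (2.01 ± 0.31 SE, adjusted p 0.000152). In bone marrow Ifi27 started higher, at 212, 122 and 80.8, and reached 251, 271 and 304 (1.10 ± 0.31 SE, adjusted p 0.024). Its difference of 0.91 ± 0.44 SE (adjusted p 0.198) was not called, and the bone marrow call was lost with edgeR (0.82, adjusted p 0.104) and without any of 4 bone marrow libraries. Xaf1 rose by 4.51 and 2.26, with a difference of 2.25 ± 0.52 SE (adjusted p 0.0158).

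The galectin gene Lgals9 and Lgals3bp, which encodes a secreted galectin-binding protein, were well read in all groups. Lgals3bp went from 240.5, 218 and 223 to 1110.4, 990.4 and 1113 CPM in fetal liver and from 549, 501 and 413 to 697, 810.2 and 983 in bone marrow, with a difference of 1.47 ± 0.20 SE (adjusted p 0.000584). Lgals9 was the plainest case of a rise in fetal liver without a called one in bone marrow. It went from 702, 499.5 and 669 to 1158, 963 and 1046 CPM in fetal liver (0.77 ± 0.16 SE, adjusted p 0.00187). In bone marrow it stood at 828, 666 and 620.2 in WT and 536, 601 and 727 in ETV6-RUNX1 (-0.18 ± 0.16 SE, adjusted p 0.461), with the groups overlapping. The difference of 0.95 ± 0.23 SE (adjusted p 0.0211) was lost without WT fetal liver replicate 2 (0.80, adjusted p 0.0579), ETV6-RUNX1 fetal liver replicate 1 (0.88, adjusted p 0.0615) or ETV6-RUNX1 bone marrow replicate 1 (0.85, adjusted p 0.0557).

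Of the remaining 8 genes all rose in fetal liver and 7 in bone marrow, and all 8 had a called larger effect in fetal liver. Ifi44, a gene induced by type I interferon in many tissues, gave the largest fetal liver rise of the 36 on the log2(CPM + 1) scale, although the plain ratio of group means was 189 for Ifi44, below the 288 of Mx1 and the 228 of Phf11d. Ifi44 went from 4.17, 4.79 and 3.04 to 959, 513 and 794 CPM (7.21 ± 0.36 SE, adjusted p 6.31e-09), and in bone marrow from 37.6, 50.8 and 21.8 to 122, 295 and 336 (2.69 ± 0.36 SE, adjusted p 0.00037). Its difference between the sources was 4.52 ± 0.51 SE (adjusted p 0.000104). Nmi encodes a binding partner of the protein of Ifi35, and its rise was smaller. It went from 43.2, 49.6 and 48.3 to 151, 107 and 167 CPM in fetal liver (1.55 ± 0.20 SE, adjusted p 3.53e-05) and from 88.7, 54.8 and 54.8 to 86.3, 91.6 and 109 in bone marrow (0.56 ± 0.20 SE, adjusted p 0.0641). Its difference (0.99 ± 0.28 SE, adjusted p 0.0428) lost its call without any of 7 single libraries, and without WT bone marrow replicate 1 the bone marrow rise of Nmi was called (0.79, adjusted p 0.0112). Ifi35 rose by 2.37 and 1.01. The receptor-transporter gene Rtp4 rose by 4.63 and 2.46, and Samd9l, whose human counterpart is altered in inherited marrow failure, by 4.22 and 1.51. Shisa5 (2.51 and 1.08), Tor3a (3.14 and 1.19) and Epsti1 (2.34 and 1.13) completed the list.

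The sources already differed in WT cells. In WT cells 17 of the 36 genes were called lower in fetal liver than in bone marrow (7.77% of all genes) and none was called higher (3.38%). The estimate was below 0 for 35 genes, all but Ifitm2, with a median of -0.94 beside -0.07 over all genes. The WT fetal liver libraries lay wholly below the WT bone marrow libraries for 24 genes (18.9% of all genes). Genes with such a gap included Ifi44 (-2.85 ± 0.36 SE, adjusted p 0.000139), Phf11d (-2.57 ± 0.38 SE, adjusted p 0.000498) and Sp100 (-2.17 ± 0.17 SE, adjusted p 2.14e-06).

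With ETV6-RUNX1 the order turned. In these cells 25 genes were called higher in fetal liver than in bone marrow (10.4% of all genes), and Ifitm1 and Ifi27 were called lower (18.2%). The ETV6-RUNX1 mean of Ifi27 was 125 ± 51.9 CPM in fetal liver and 275 ± 26.9 in bone marrow (both SD, n = 3) (-1.20 ± 0.31 SE, adjusted p 0.0101). Ifitm1 was 534 ± 70.3 and 1451 ± 344 CPM (-1.42 ± 0.22 SE, adjusted p 0.000318). For 12 genes both calls held, lower in WT and higher in ETV6-RUNX1 fetal liver (0.603% of all genes): Uba7, Ube2l6, Herc6, Rsad2, Isg20, Sp100, Sp140, Phf11b, Phf11d, Ifi44, Samd9l and Tor3a. Each difference of effects above is by construction the ETV6-RUNX1 gap minus the WT gap, so for Sp100 it was made of 1.09 and -2.17, and for Mx1 of 2.77 and -0.65. For Isg15, Mx1, Mx2, Bst2, Helz2, Znfx1, Tdrd7, Daxx, Xaf1, Lgals9, Ifi35, Epsti1 and Shisa5 the WT gap was not called, and fetal liver was called higher with ETV6-RUNX1. For Pml (0.35 ± 0.21 SE, adjusted p 0.237), Rtp4 (0.67 ± 0.30 SE, adjusted p 0.111), Lgals3bp (0.38 ± 0.14 SE, adjusted p 0.062) and Ifi27l2a (0.76 ± 0.48 SE, adjusted p 0.256) the ETV6-RUNX1 gap was not called, and fetal liver was called lower in WT. How common these last patterns are over all genes was not counted.

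**Figure D5:**
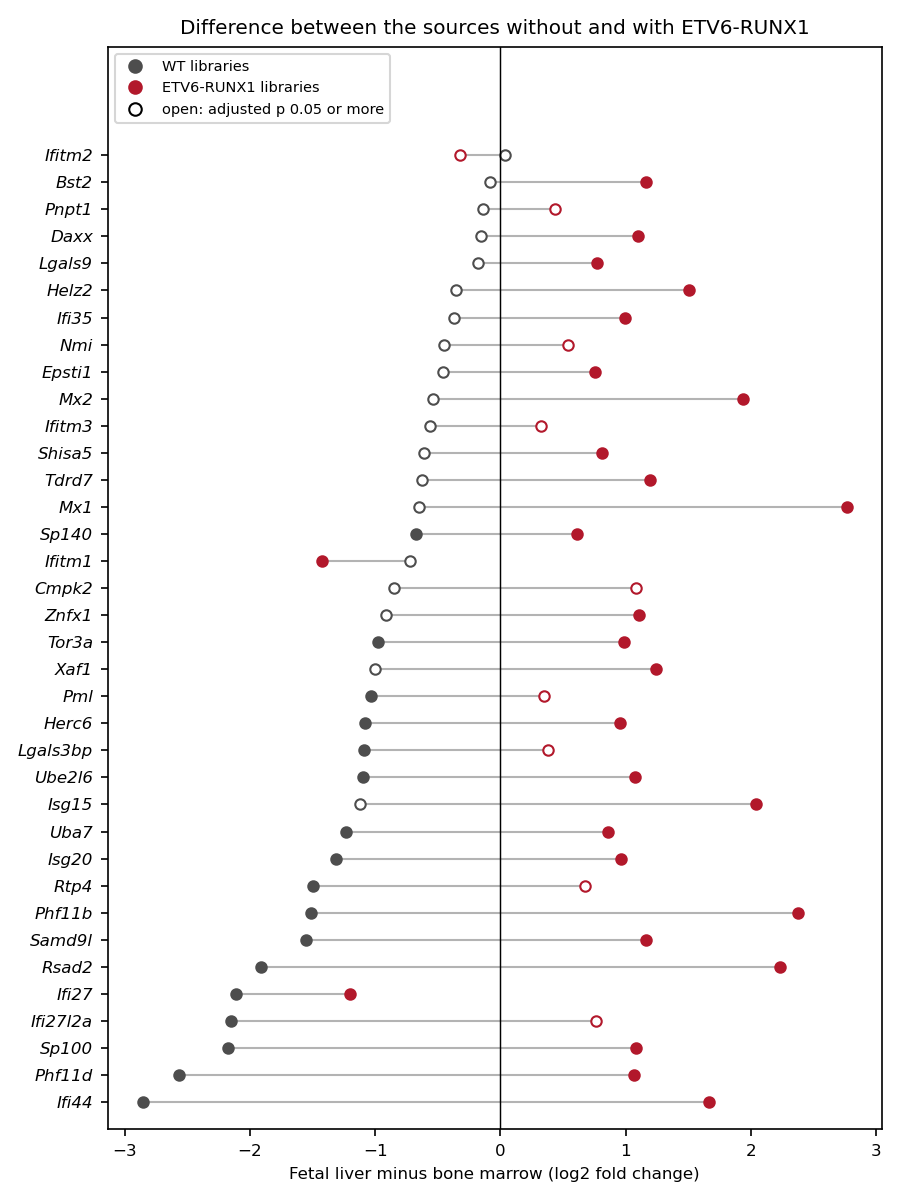
Fetal liver minus bone marrow (log2 fold change) in WT (grey) and ETV6-RUNX1 (red) cells for each gene, filled where called. The grey points lie left of 0 for 35 of 36 genes and the red points right of 0 for 33.

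The genes also moved together among the libraries of a group. ETV6-RUNX1 bone marrow replicate 1 had the lowest level of its group for 33 of the 36 genes, where it was lowest for 22.5% of all genes whose group mean reached 1 CPM. ETV6-RUNX1 fetal liver replicate 2 was lowest for 31 (33.7% of all genes), and WT bone marrow replicate 3 for 26 (26.3%). In WT fetal liver, replicates 1 to 3 were lowest for 11, 10 and 12 of the 33 genes whose mean there reached 1 CPM. Together the 36 genes took 0.464 to 0.514% of all reads in the WT and 1.37 to 1.92% in the ETV6-RUNX1 fetal liver libraries, and 0.591 to 0.995% and 0.866 to 1.37% in bone marrow. In bone marrow the ranges overlap, and there the 4 membrane restriction genes alone summed to 3159.9 to 6207 CPM in WT and 3739 to 5886 with ETV6-RUNX1. Per kilobase of annotated exon, Ifitm3 was the most abundant of the 36 in ETV6-RUNX1 fetal liver, at 3744 CPM per kb, followed by Ifitm2 (1045) and Isg15 (741), which stood at 10.8 CPM per kb in WT fetal liver.

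The signalling genes upstream were read from lists of ligands, receptors, transducers and feedback inhibitors. Of 10 interferon genes only Ifnb1, which encodes interferon beta, passed the filter, and it did so through the ETV6-RUNX1 fetal liver libraries alone, so no test of it is read here. Those libraries held 119, 141 and 163 reads of Ifnb1, which came to 2.53 CPM in replicate 2 and 4.89 in replicate 3. WT fetal liver held 4, 0 and 0 reads, WT bone marrow 4, 0 and 0, and ETV6-RUNX1 bone marrow 4, 10 and 4 (0.108, 0.309 and 0.124 CPM). Ifna2 was read in ETV6-RUNX1 fetal liver replicates 2 and 3 only (0.144 and 0.3 CPM), Ifna4 in replicate 3 only (0.42), and Ifna5 in no library. Ifnk went the other way, with 12, 15 and 15 reads in WT and 2, 0 and 5 in ETV6-RUNX1 fetal liver.

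Of the interferon receptors 5 of 6 could be tested, with 2 called higher in fetal liver (Ifnar1 and Ifngr1), 3 in bone marrow (Ifngr1, Ifngr2 and Il10rb) and none with a called difference. For comparison, 24.8% of all genes were called higher in fetal liver and 14.4% in bone marrow, and the same shares apply to the lists that follow. Ifngr1 rose by 0.57 and 0.43, and Ifnar1 stood at 0.83 (adjusted p 0.00281) and 0.53 (0.0625). All 5 transducers read here (Jak1, Jak2, Tyk2, Stat2 and Irf9) were called higher in fetal liver and 3 in bone marrow (Jak1, Stat2 and Irf9). The difference was called for Stat2, Irf9 and Jak2. Stat2 went from 34.4, 28.3 and 22.3 to 559, 422 and 515 CPM in fetal liver and from 33.7, 64.7 and 47.4 to 162, 290.1 and 198 in bone marrow, with a difference of 1.96 ± 0.35 SE (adjusted p 0.00315). For Irf9 the rises were 2.31 and 1.04. The kinase gene Jak2 rose by 1.18 in fetal liver and stood at 0.34 (adjusted p 0.13) in bone marrow. Among 6 feedback inhibitors, 2 were called higher in fetal liver (Usp18 and Socs3), a count near the share of all genes, and both were also called in bone marrow. Socs1 passed the filter through the ETV6-RUNX1 bone marrow libraries alone (1.49, 1.64 and 1.14 CPM), so no test of it is read here. Usp18, which encodes the protease that removes ISG15 and blocks the interferon receptor, had the called difference of this list (3.15 ± 0.52 SE, adjusted p 0.00212), from 25.1, 27.8 and 30.3 to 799.9, 505 and 1063 CPM in fetal liver and from 70.9, 82.8 and 44.7 to 92.2, 276 and 279.8 in bone marrow. Socs3 rose by 1.15 and 1.43.

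The summed levels of some marker lists of other cell types differed between the genotypes. In bulk RNA more cells of a type and more RNA per cell cannot be told apart. Of 9 monocyte and macrophage markers 5 reached 1 CPM in a library, and their summed level was 248 to 311 CPM in WT and 727 to 923 in ETV6-RUNX1 fetal liver, and 258 to 343 and 328 to 488 in bone marrow. Lyz2 and Cd68 held most of it, Csf1r went from 1.41, 0.385 and 0.682 to 13.6, 7.13 and 9.33 CPM in fetal liver, and C1qa, C1qb and C1qc were at or near 0 in every group. The plasmacytoid dendritic cell list, of which 2 of 5 genes reached 1 CPM, summed to 0.837 to 2.34 CPM in WT and 10.2 to 35.3 in ETV6-RUNX1 fetal liver, and to 0.876 to 0.897 and 2.73 to 5.35 in bone marrow. In the ETV6-RUNX1 libraries Pacsin1 made up most of the sum (28.2, 9.95 and 34.1 CPM in fetal liver), and the defining markers Siglech and Klk1 were at or near 0 in all groups. The T and NK cell list (1 of 5 genes at 1 CPM) summed to 1.23 to 2.01 CPM in WT and 0.315 to 1.89 in ETV6-RUNX1 fetal liver, and to 0.533 to 1.196 and 0.278 to 0.405 in bone marrow, with Cd3e at 0 in all 12 libraries. The megakaryocyte list (6 of 6 genes) summed to 3089 to 4575 CPM in WT and 7221 to 7929 in ETV6-RUNX1 fetal liver, and to 1374 to 1835 and 475 to 2108 in bone marrow. Pf4 held the largest part of it. Of the 6 genes 3 were called higher with ETV6-RUNX1 in fetal liver (24.8% of all genes) and 0 in bone marrow (14.4%). For 5 the ETV6-RUNX1 fetal liver libraries lay wholly above the WT ones (32.3% of all genes). The exception was Gp9, called lower with ETV6-RUNX1 in fetal liver (-0.84 ± 0.23 SE, adjusted p 0.00911) and in bone marrow (-2.51 ± 0.23 SE, adjusted p 2.77e-05). The erythroid list (4 of 6 genes at 1 CPM) summed to 673 to 935 and 1288 to 2025 CPM in fetal liver and to 213 to 470.1 and 378 to 583 in bone marrow. Nearly all of the fetal liver sum was Hbb-bt, whereas Klf1 stood at 0.497, 0.954 and 0.512 CPM in WT and 0.315, 0.18 and 0.03 in ETV6-RUNX1 fetal liver. The endothelial and stromal list (5 of 7 genes at 1 CPM) summed to 71.3 to 96.96 and 146 to 178 CPM in fetal liver. Cdh5 and Pecam1 were called higher there (1.18, adjusted p 0.000141, and 1.01, adjusted p 0.00036). HSCs also express Pecam1, whereas Cdh5 had bone marrow means of 0.516 CPM in WT and 0.187 with ETV6-RUNX1. Cxcl12 of the same list had no read in any WT library and 34, 121 and 38 reads in ETV6-RUNX1 fetal liver, beside 2, 0 and 0 in ETV6-RUNX1 bone marrow. Kdr and Col1a2 had lower means with ETV6-RUNX1 in fetal liver (6.79 and 6.32 CPM, and 0.735 and 0.584). In bone marrow that list summed to 56.4 to 87.9 and 80.6 to 91.9 CPM. The mast cell and basophil list (3 of 5 genes) summed to 5.72 to 9.94 and 7.65 to 12.3 CPM in fetal liver. Only Hdc had a higher mean with ETV6-RUNX1 there (0.288 to 6.34 CPM). The fetal liver means fell for Cpa3 (7.13 to 3.65), Ms4a2 (0.469 to 0.108), Mcpt8 (0.387 to 0) and Fcer1a (0.222 to 0). In bone marrow the list summed to 9.33 to 13.8 and 8.78 to 10.7 CPM. Fcer1a of this list passed the filter through the WT bone marrow libraries alone, so no test of it is read here. Those libraries held 63, 167 and 177 reads of Fcer1a, and the ETV6-RUNX1 bone marrow libraries 6, 6 and 8. The B cell list (2 of 6 genes) summed to 50.1 to 52.5 and 55.4 to 81.7 CPM in fetal liver and to 38.5 to 50.5 and 42.04 to 52.1 in bone marrow. The hepatocyte list (2 of 5 genes) summed to 15.1 to 19.4 and 15.1 to 17.00 CPM in fetal liver and to 21.2 to 33.2 and 24.3 to 36.8 in bone marrow. Most of that sum was Afp, whereas the mean of Apoa1 was lower with ETV6-RUNX1 in fetal liver (1.88 to 0.290 CPM) and bone marrow (1.43 to 0.415). The part of these cells in the rises of the 36 genes was not tested.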

How the data were processed

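The processed table gives the RNA-seq level of each gene in 12 libraries. Per the labels' protocols, RNA was made into libraries with a stranded total RNA kit and sequenced in pairs. Per the submitters' processing notes, STAR 2.5.1a, featureCounts 1.4.6-p5, Salmon 0.8.2, edgeR and limma were used with GRCm38, and the strand setting of the counting is not given in the sources used here. The deposited CPM (reads scaled to the library total by the authors) came from whole reads: within a tolerance of 0.01, 100% of values came out as whole reads. Rows of a repeated gene ID (276) held equal CPM and were kept once, leaving 40481 genes.

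The main test was limma 3.58.1 in R 4.3.3 on log2(CPM + 1), with a pseudocount of 1, trended empirical Bayes and 1 coefficient for each of 4 groups of 3. The filter asked for 1 CPM or more in 3 or more libraries and kept 14271 genes, over which p-values were adjusted (Benjamini-Hochberg) with a threshold of 0.05. The difference between sources was the fetal liver effect minus the bone marrow effect. The code was tested on simulated data. Alternatives were another pseudocount (0.1), other filters, median-of-ratios and quantile scaling, a replicate block, array weights, the compared libraries alone, each library left out, and edgeR 4.0.16 and DESeq2 1.42.0 on the recovered reads.

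The genes and lists were chosen with earlier results of these data known. Some genes of the signalling and marker lists are not reported here, and the counts and sums leave them out. All 36 genes are named. Within each role full statistics are given for the genes with the smallest and the largest p of the difference and for those whose calls differ from the rest, and of each signalling list up to 3 genes with the smallest fetal liver p. Gene positions are from GENCODE M21 and promoter sequences from RefSeq, both on GRCm38.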

Additional observations from a re-analysis of the deposited data

Results flagged for a closer look

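For 29 of the 36 genes the effect of ETV6-RUNX1 differed between fetal liver and bone marrow by the test of the difference itself (limma, adjusted over 14271 genes). Each difference is in log2 units and is larger in fetal liver. Groups of 3 libraries were too small to be searched for single outlying libraries. In the ISG15 system the difference was 3.16 for Isg15, 2.09 for Uba7, 2.17 for Ube2l6 and 2.04 for Herc6. The Mx genes gave 3.42 for Mx1 and 2.47 for Mx2. Among enzymes of nucleotides and RNA it was 4.14 for Rsad2, 2.28 for Isg20, 1.86 for Helz2, 2.02 for Znfx1 and 1.82 for Tdrd7. Nuclear body and chromatin genes gave 3.26 for Sp100, 1.29 for Sp140, 1.39 for Pml, 1.25 for Daxx, 3.89 for Phf11b and 3.64 for Phf11d. It was 2.91 for Ifi27l2a and 2.25 for Xaf1, and 1.47 for Lgals3bp and 0.95 for Lgals9. In the remaining genes it was 1.36 for Ifi35, 0.99 for Nmi, 4.52 for Ifi44, 2.17 for Rtp4, 1.21 for Epsti1, 2.72 for Samd9l, 1.43 for Shisa5 and 1.96 for Tor3a. The adjusted p ranged from 4.25e-06 for Sp100 to 0.0428 for Nmi, and no membrane restriction gene was among the 29.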

How the results depend on the processing

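In fetal liver 35 of the 36 genes kept their call or lack of it under all 22 alternatives, Pnpt1 being called in 5 of them. Of 792 alternative values for bone marrow 747 kept their side of the threshold and their sign, and of 756 for the difference between the sources 702 did, with 13 genes losing and 4 gaining a call in some alternative. Tests of every gene with a read gave 16 called differences, 10 calls between the WT groups, 15 genes called in both sources and more in fetal liver, 9 in both without a called difference, 1 in fetal liver alone with a called difference and 8 without one. Genes in both sources without a called difference numbered 1 with median-of-ratios scaling, edgeR or DESeq2. Genes in fetal liver alone with a called difference numbered 6 with median-of-ratios scaling or edgeR. Those without one numbered 2 with a mean of at least 5 CPM, median-of-ratios, quantile, the replicate block, edgeR or DESeq2, and 0 with array weights. In each case the cause was not tested. Shares of all genes called under each alternative are not given in this section, so its counts are not read against them.

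With single libraries left out, called genes numbered 35 to 36 in fetal liver, 25 to 30 in bone marrow, 24 to 31 for the difference, 13 to 20 between the WT groups and 19 to 30 between the ETV6-RUNX1 groups. The genes in both sources and more in fetal liver then numbered 22 to 28, those in both without a called difference 1 to 6, those in fetal liver alone 1 to 5 with and 1 to 3 without a called difference, and those in neither 2 to 3.

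Signs turned for uncalled values only. Ifitm1 in bone marrow became 0.060 with array weights, 0.18 without WT replicate 1 and 0.007 without ETV6-RUNX1 replicate 2, and Pnpt1 0.041 without WT replicate 3. Between the WT groups Ifitm2 became -0.061 with quantile scaling, -0.027 without fetal liver replicate 3, and -0.031 and -0.096 without bone marrow replicates 2 and 3. There Bst2 became 0.018 with median-of-ratios, 0.011 with quantile scaling, 0.12 with array weights and 0.26 without bone marrow replicate 1. With single libraries left out these values ran from -0.31 to 0.18 for Ifitm1, -0.20 to 0.041 for Pnpt1, -0.096 to 0.24 for Ifitm2 and -0.31 to 0.26 for Bst2. Scaling moved the median of all genes most with quantile scaling, from 0.08 to -0.10 in fetal liver and from 0.13 to -0.04 in bone marrow.

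The labels do not say whether libraries of the same replicate number share a batch, and the main test did not pair them. The 18 correlations between libraries of the same number ran from -0.44 to 0.39, and 7 were above 0.1. With 3 libraries a group such correlations cannot show whether a batch was shared. With the replicate block 35 genes were called in fetal liver, 28 in bone marrow, 27 for the difference, 16 between the WT and 26 between the ETV6-RUNX1 groups. With 3 libraries a group, wide intervals limit what can be said of equal rises. Each of the 36 genes had more than 3 reads in every library, but some counts were low. Mx1 had 4 reads in WT bone marrow replicate 3, and Phf11d had 30, 16 and 25 in the WT fetal liver libraries.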
